A study of Homo sapiens with 16 samples.

Results

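A stretch of 10 Mb on the short arm of chromosome 1, from 110 to 120 Mb on GRCh37, was examined in 4 lists of TOP2B intervals from PC9 cells. Its members are the intervals of chromosome 1 whose midpoint lies from 110 to below 120 Mb, 1535 of the 44922 intervals in the 4 lists. The stretch was chosen from these lists because the number of intervals in it differed between conditions, so its counts and shares are a description and carry no test.

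PC9 is a human cell line from a lung adenocarcinoma whose growth is driven by a mutated, active EGFR. The 4 conditions were METTL7A knockout cells treated with osimertinib, an inhibitor of mutant EGFR, wild-type cells treated with osimertinib, untreated METTL7A knockout cells and untreated wild-type cells. Treatment ran for 6 to 8 weeks with a dose that was raised from 100 nM. The method was CUT&RUN: a nuclease tethered to the antibody releases the DNA next to the bound protein for sequencing. Each condition had 2 replicate libraries, which the submitters had intersected into 1 list. The labels do not say whether the knockout is a single clone, or whether replicates came from separate cultures.

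TOP2B is the beta isoform of DNA topoisomerase II. The enzyme cuts both strands of a duplex, passes another duplex through the break and reseals it, which relieves the torsional stress that transcription and chromatin looping create. It is expressed in dividing and non-dividing cells and is known for acting at promoters and at the anchors of chromatin loops. METTL7A is a member of the methyltransferase-like family. The short arm of chromosome 1 holds in this stretch NRAS, a RAS gene that acts downstream of EGFR. No gene models of this build were used here, so intervals are given by position, counted from 1, and were not assigned to this or any other gene.

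Intervals filled the stretch in 3 of the 4 conditions and were nearly missing in treated wild type. The treated knockout list held 516 of its 7493 intervals here, or 6.89% (95% interval 6.32 to 7.48). Treated wild type held 17 of 9655, or 0.176% (0.103 to 0.282). Untreated knockout held 536 of 12493, or 4.29% (3.94 to 4.66), and untreated wild type 466 of 15281, or 3.05% (2.78 to 3.33). The limits in brackets are exact binomial ones for counting error only, and intervals that lie side by side are not independent. With 1 list per condition there is no spread between replicates to compare a difference with.

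The stretch was among the densest of the genome in 3 lists. Among the 248 windows of 10 Mb that were not empty in all lists, it held the rank 2 by number of intervals in the treated knockout, 6 in untreated knockout and 4 in untreated wild type. In treated wild type its rank was 92. Of the intervals of chromosome 1, 64.9% lay here in the treated knockout, 3.69% in treated wild type, 50.2% in untreated knockout and 34% in untreated wild type.

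**Figure D1:**
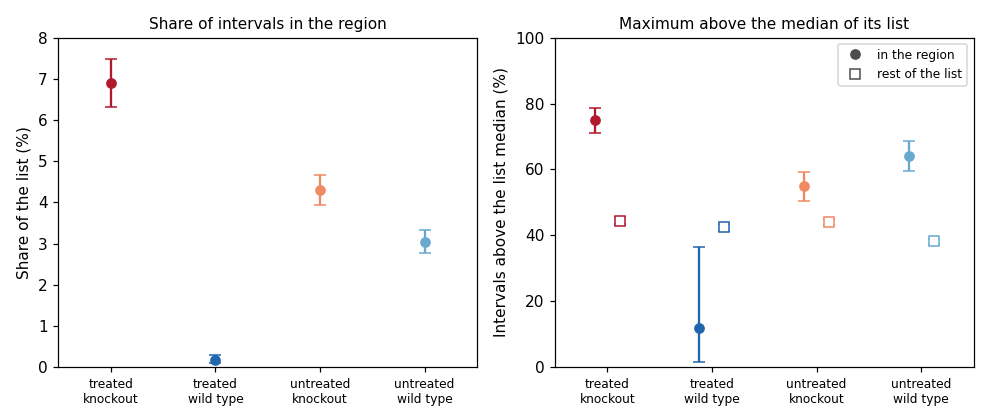
Left, the share of each list's intervals (%) that lies in the stretch, with exact 95% intervals. Treated wild type sits at 0.176% and the other 3 lists between 3.05 and 6.89%. Right, the share of intervals (%) whose called peak has a maximum above the median of its list, in the stretch (filled circles) and in the rest of the list (open squares, whose intervals are smaller than the marker). The filled circle is above the open square in every list except treated wild type.

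The comparison of treated with untreated wild type asks what the cells lost or gained in TOP2B occupancy while they grew under the drug. The share of the list was 0.0577 times that of untreated cells (95% interval 0.0333 to 0.0935). Of the 41 windows of 10 Mb with at least 100 intervals in untreated wild type, only 2 had a lower ratio, and the median ratio was 0.509. In windows of 1 Mb, 7 windows of the stretch held at least 20 intervals in either list, and in all 7 the share was at least 2-fold lower under osimertinib. Over the genome 37.5% of 307 such windows were at least 2-fold lower and 29.6% at least 2-fold higher in this comparison. The rule that chose the stretch used the same contrast, so nothing is read from that difference, and the same holds for the comparisons that follow.

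In the knockout the same comparison gave nearly equal numbers, 516 treated and 536 untreated, while the treated list as a whole was shorter, with 7493 intervals in treated and 12493 in untreated knockout. The share under osimertinib was therefore 1.61 times that of untreated knockout (1.42 to 1.81). Of the 7 windows examined, 0 passed 2-fold in either direction, against 3.16% of 158 windows of the genome that were higher and 10.1% that were lower. The ratio was 1.37 when each called peak was counted as 1, and 0.963 when the numbers themselves were divided.

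Between genotypes, untreated knockout held 1.41 times the share of untreated wild type (1.24 to 1.6). None of the 7 windows examined passed 2-fold, against 1.3% of 231 windows of the genome that were higher in the knockout and 13.4% that were lower. The ratio was 1.06 when only intervals with a maximum of at least the median of their list were counted. Under osimertinib the treated knockout held 39.1 times the share of treated wild type (24.2 to 67.7). All 7 windows were at least 2-fold higher in the treated knockout, as were 33% of 212 windows of the genome, while 49.5% were at least 2-fold lower. The untreated lists and the treated lists each serve in more than 1 of these comparisons, so the 4 ratios are not independent of each other.

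Lists also differed in the lowest signal that entered them, which bears on every comparison of numbers. The area of a called peak is the signal summed over its bases. The lowest area was 213 in the treated knockout list, 845 in treated wild type, 239 in untreated knockout and 563 in untreated wild type. When intervals under an area of 845 were left out of all lists, 260 members were kept in the treated knockout, 17 in treated wild type, 38 in untreated knockout and 383 in untreated wild type. The share was then 16.9% of the remaining list in the treated knockout (15.1 to 18.9), 0.176% in treated wild type, 5.76% in untreated knockout (4.11 to 7.82) and 3.33% in untreated wild type (3.01 to 3.67). The sources used here do not say whether areas of different lists are on 1 scale. Maxima were whole multiples of a step that differed by list. It was 0.0379 in the treated knockout, 0.0535 in treated wild type, 0.0723 in untreated knockout and 0.0392 in untreated wild type. Counted in steps, the lowest areas were 5600, 15800, 3300 and 14350 in the same order. A cut at 845 thus means a different number of steps in each list. On this measure the order of the 4 shares was the same, whereas only 5.28% of the untreated knockout list and 20.5% of the treated knockout list were kept. The value 845 is the lowest area of treated wild type, so all of that list was kept. Its 17 members lay near this floor, with a median area of 994 against 2133 in the list.

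Position by position, the stretch had a nearly empty part and a filled part. From 110 to 113 Mb the windows of 1 Mb held 1, 3 and 0 intervals in the treated knockout, 5, 0 and 4 in treated wild type, 1, 1 and 3 in untreated knockout and 9, 0 and 0 in untreated wild type. Counts in this part were low in every list, and treated wild type was not below the others. The window from 113 to 114 Mb held 34 intervals in the treated knockout, 1 in treated wild type, 34 in untreated knockout and 37 in untreated wild type. From there to 120 Mb no window held fewer than 52 intervals in any list but treated wild type.

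The next windows showed the same contrast. At 114 to 115 Mb there were 85 intervals in the treated knockout, 1 in treated wild type, 88 in untreated knockout and 63 in untreated wild type. At 115 to 116 Mb the counts in the same order were 69, 0, 80 and 66. The window at 116 to 117 Mb was the fullest of the treated and untreated knockout, with 108 and 104 intervals, against 0 in treated and 87 in untreated wild type. At 117 to 118 Mb the treated knockout held 97, treated wild type 2, untreated knockout 95 and untreated wild type 90. The counts at 118 to 119 Mb were 67, 2, 65 and 58 in that order, and those at 119 to 120 Mb were 52, 2, 65 and 56. Exact 95% limits of the ratios of shares were taken for the windows from 113 to 120 Mb. In wild type, treated over untreated, the upper limit ranged from 0.0686 at 116 to 117 Mb to 0.254 at 113 to 114 Mb. For the treated knockout over treated wild type, the lower limit ranged from 37.1 to 7.35 at the same places. Intervals went on beyond 120 Mb, with 9 in the next 1 Mb in the treated knockout, 1 in treated wild type, 14 in untreated knockout and 17 in untreated wild type.

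**Figure D2:**
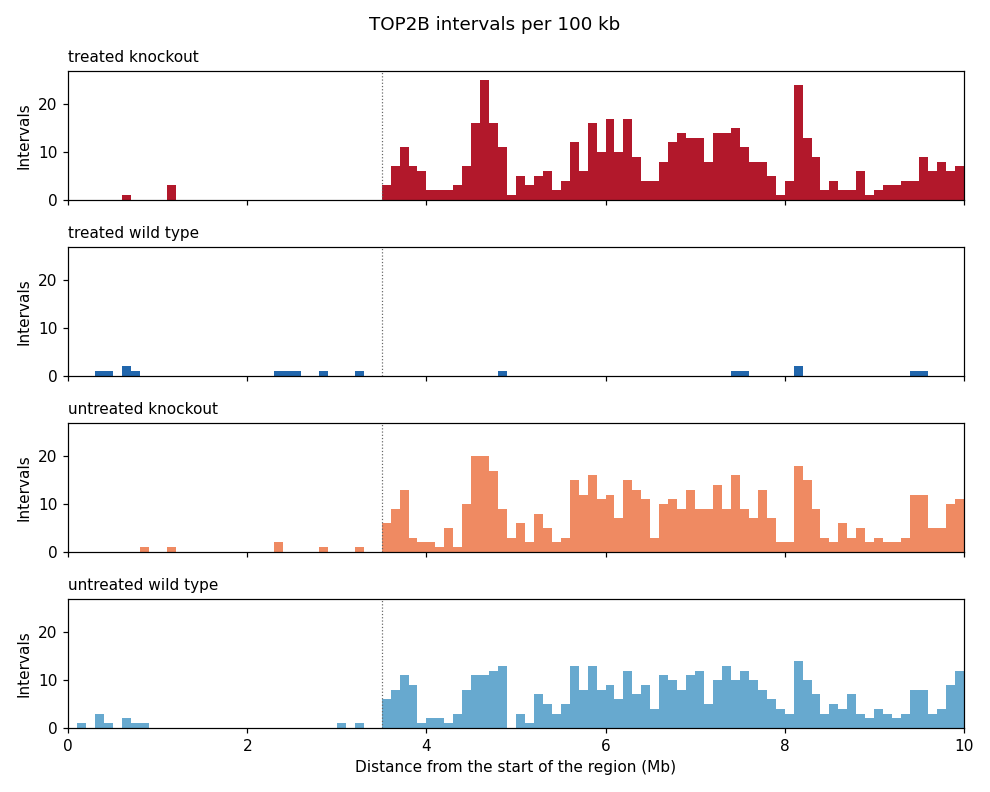
Number of intervals in each window of 100 kb, against the distance in Mb from the start of the stretch, 1 panel per list with the same scale. The dotted line marks 3.5 Mb from the start, where the counts of 3 lists rise. Treated wild type never exceeds 2 intervals per window.

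The filled part began at nearly the same base in 3 lists. An edge was defined, after the data had been seen, as the first interval behind the last empty gap of at least 250 kb. In the treated knockout that interval ran from 113560551 to 113561300, behind 2403 kb without an interval. In untreated knockout it ran from 113546551 to 113548100, behind 281 kb, and in untreated wild type from 113560901 to 113565100, behind 306 kb. The first intervals of the treated knockout and of untreated wild type overlapped each other. Behind the edge the density was 79.5 intervals per Mb in the treated knockout, 82.1 in untreated knockout and 70.7 in untreated wild type. Before it, from 110 Mb on, the densities were 1.12, 1.69 and 3.09 per Mb in the same order. No gap behind the edge was longer than 126 kb in the treated knockout, 127 kb in untreated knockout and 153 kb in untreated wild type. In treated wild type the same definition gave an interval at 119492051 to 119493350 with 2 members from there on, so no filled part. Its longest empty gap ran from 114890351 to 117421100, over 2531 kb of the part that was filled elsewhere. A further gap of treated wild type ran from 113266901 to 114888400, over 1622 kb across the edge of the other lists. Another of 1294 kb ended before the interval at 119492051.

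**Figure D3:**
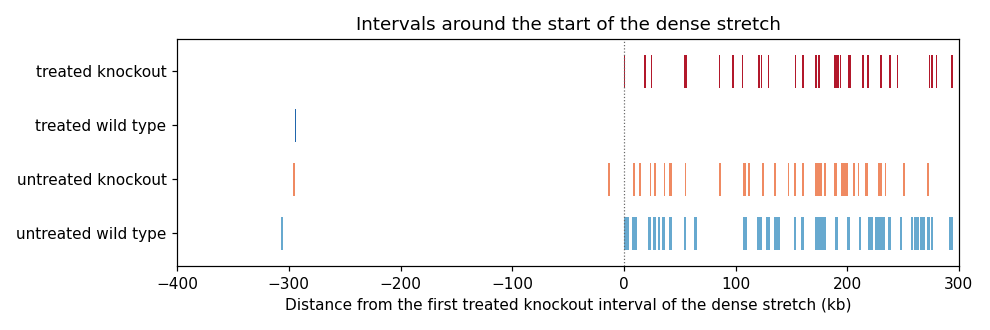
Intervals of the 4 lists, drawn to scale as bars, against the distance in kb from the first treated knockout interval behind the edge (dotted line). Intervals of 3 lists crowd to the right of the line, and treated wild type has 1 interval in the window drawn, to the left.

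The other long gaps of the 3 filled lists lay before the edge, and treated wild type also had one there, from 110761151 to 112353950. The treated knockout had no interval from 110632051 to 111103100. Untreated knockout had none from 111149801 to 112385450, from 112388851 to 112870200 and from 112872351 to 113264000. Untreated wild type had none from 110856001 to 113049400. The lower bound of the stretch cut through nearly empty sequence and the upper bound through filled sequence. Between 100 and 110 Mb there were 0 intervals in the treated knockout, 1 in treated wild type, 0 in untreated knockout and 2 in untreated wild type. At the lower bound the first members began at 110630751 in the treated knockout, 110313101 in treated wild type, 110851651 in untreated knockout and 110166651 in untreated wild type. Their maxima were 0.625, 0.636, 0.8 and 0.833 times the median of their list in the same order. The last intervals below 110 Mb began at 95094151, 109809901, 91852701 and 109807251, with 1, 0.727, 13.6 and 1 times the median. At the upper bound treated wild type had its last member at 119532351 to 119533650, with 1.09 times the median, and its next interval began at 120284301, with 0.818 times. In the other 3 lists the nearest members inside ended at 119995300 in the treated knockout, 119981650 in untreated knockout and 119996200 in untreated wild type, with maxima of 1.25, 1.4 and 1.33 times the median of their list. The nearest intervals outside began at 120010901, 120004351 and 120003001 in the same order, with 1.25, 1 and 1 times the median.

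Within the filled part the density rose and fell at the same places in the 3 lists. Over the 65 windows of 100 kb from 113.5 to 120 Mb, a window held a median of 7 intervals in the treated knockout (1 to 25), 9 in untreated knockout (1 to 20) and 7 in untreated wild type (0 to 14). Treated wild type was empty in 59 of the 65. Spearman's rho of the counts was 0.826 between the treated and untreated knockout, 0.818 between the treated knockout and untreated wild type, and 0.826 between untreated knockout and untreated wild type. The values of Pearson's r for these pairs were 0.844, 0.784 and 0.82. They describe windows that share their libraries and that differ in sequence, and windows are not replicates. The fullest windows were at 114.6 to 114.7 Mb, with 25 intervals in the treated knockout, 0 in treated wild type, 20 in untreated knockout and 11 in untreated wild type, and at 118.1 to 118.2 Mb, with 24, 2, 18 and 14. The emptiest was at 114.9 to 115.0 Mb, with 1, 0, 3 and 0. Windows at 114.1 to 114.2 Mb and at 118.9 to 119.0 Mb held at most 2 intervals in each list.

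Of the 17 intervals of treated wild type, 9 overlapped no interval of another list, 52.9% against 64.7% of its whole list. Before 113.5 Mb there were 10 of them, and 1 of these 10 overlapped an interval of another list, at 110313101 to 110313950 with untreated wild type. The other 9 lay at 110476251 to 110477400, 110609301 to 110611150, 110611901 to 110612950, 110759901 to 110761150, 112353951 to 112355800, 112432451 to 112433600, 112567901 to 112569000, 112801051 to 112801750 and 113265751 to 113266900. The intervals at 110609301 and 110611901 were pieces of 1 called peak. The interval at 113265751 was 0.15 kb from an interval of untreated knockout and 294 kb from one of the treated knockout. From 113.5 Mb on there were 7, and all 7 overlapped an interval of at least 1 other list. These counts depend on the density of the other lists, which are nearly empty before 113.5 Mb and filled behind it. That boundary was set after the data had been seen, and the overlap that density alone would give was not computed.

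Of those 7, 3 overlapped intervals of all 3 other lists. At 118197051 to 118197650 the maximum was 1.75 times the list median in the treated knockout, 1 times in treated wild type, 2 times in untreated knockout and 1.33 times in untreated wild type. At 114888401 to 114890350 the values were 1.12 times in the treated knockout, 0.909 times in treated wild type, 1.4 times in untreated knockout and 1.5 times in untreated wild type. At 118124151 to 118125400 they were 1.25, 0.909, 1.2 and 1.42 times in the same order. At each of the 3, treated wild type had the lowest value relative to its own list. These maxima belong to the called peaks and can lie outside the interval. The other 4 lay at 117421101 to 117421200 with a counterpart in untreated knockout, at 117575151 to 117576150 and 119532351 to 119533650 with counterparts in both untreated lists, and at 119492051 to 119493350 with a counterpart in untreated wild type.

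The maximum of a called peak, the highest coverage within it, was not used to choose the stretch. Peaks enter a list by their signal, so maxima are not independent of the counts that were used. The maximum is the authors' value and is compared here only with the other peaks of the same list. Maxima came in whole multiples of 1 step in each list, to a tolerance of 0.01 steps. Members of the treated knockout had maxima of 5 to 21 steps with a median of 10, where the median of the list was 8. Those of treated wild type had 7 to 13 steps with a median of 10, where the median of the list was 11. In untreated knockout they had 3 to 11 steps with a median of 6 against 5 in the list, and in untreated wild type 6 to 23 steps with a median of 13 against 12. At most 2 steps thus separate the median member from the median of its list.

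Members stood above the list median more often than the other intervals in 3 lists. In the treated knockout 75% of members did (71 to 78.7), against 44.5% of the rest (43.3 to 45.6). In treated wild type 2 of 17 did, 11.8% (1.46 to 36.4), against 42.4% (41.4 to 43.4). In untreated knockout the shares were 54.9% (50.5 to 59.1) and 44% (43.1 to 44.9), and in untreated wild type 64.2% (59.6 to 68.5) and 38.2% (37.4 to 39). Several intervals can carry the maximum of 1 called peak, so these counting intervals are too narrow. By 1 Mb window the median of the treated knockout stayed between 1.12 and 1.38 times the list median from 113 to 120 Mb, that of untreated knockout was 1.2 times in each window, and that of untreated wild type lay between 1.08 and 1.21 times. The members before 113.5 Mb had lower medians, at 0.625 times in the treated knockout (4 members), 1 times in untreated knockout (6) and 0.833 times in untreated wild type (11).

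The highest called peaks of the 3 filled lists all had a counterpart in the other 2 of these lists. Wide spans overlap more readily in densely covered sequence, and 1 of these ran from 117101701 to 117126450. The share of all called peaks with such counterparts was not computed. In the treated knockout the highest gave 4 intervals from 116034901 to 116041400 with a maximum 2.62 times the list median. It was followed by peaks from 115860251 to 115869600 (2.5 times) and from 117263351 to 117267050 (2.25 times). The region of the maximum of the peak at 115860251 began at 115860001, before its first interval. In treated wild type the highest were at 112567901 to 112569000 (1.18 times), 119532351 to 119533650 (1.09 times) and 113265751 to 113266900 (1 times), and only the middle one had a counterpart. The regions of their maxima lay outside these intervals, beginning at 112571351, 119539651 and 113265001 in the same order. In untreated knockout they ran from 115123701 to 115125000 (2.2 times), from 114634001 to 114642000 and from 118192501 to 118199500 (both 2 times). In untreated wild type they ran from 117101701 to 117126450 (1.92 times), from 117249851 to 117258150 and from 116751301 to 116755000 (both 1.83 times).

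The width of members was near that of the other intervals of the same list. Members had a median width of 1200 bp in the treated knockout (quartiles 900 and 1550), 1150 bp in treated wild type (1000 and 1300), 1750 bp in untreated knockout (1250 and 2450) and 2900 bp in untreated wild type (2150 and 4200). The other intervals had medians of 1150, 1200, 1650 and 2600 bp in the same order. Members covered 0.67 Mb in the treated knockout, 0.0196 Mb in treated wild type, 1.08 Mb in untreated knockout and 1.7 Mb in untreated wild type. In splitting, the stretch and the rest of a list differed most in treated wild type, which has 17 members. Intervals that shared their called peak with another interval made up 51.9% of members against 32.3% of the rest in the treated knockout, 11.8 against 50% in treated wild type, 4.85 against 3.27% in untreated knockout and 60.7 against 49.6% in untreated wild type. By called peaks the numbers were 352, 16, 523 and 288 in the same order of lists. The region of the maximum lay in the interval itself for 39.7% of members in the treated knockout, 35.3% in treated wild type, 88.4% in untreated knockout and 48.7% in untreated wild type.

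Members of the 3 filled lists shared positions with each other. A counterpart is an interval of the other list that overlaps by at least 1 bp. Of the treated knockout members, 52.1% (47.7 to 56.5) had a counterpart in untreated knockout, where 43.7% of all treated knockout intervals had one. In the other direction it was 43.8% of untreated knockout members (39.6 to 48.2), against 23.4% of all untreated knockout intervals. Of the untreated knockout members, 64.9% (60.7 to 69) had a counterpart in untreated wild type, against 53.7% of all. Of the untreated wild-type members, 60.7% (56.1 to 65.2) had one in untreated knockout, against 35.1% of all. Between the treated knockout and untreated wild type, 67.1% of treated knockout members (62.8 to 71.1) and 50.9% of untreated wild-type members (46.2 to 55.5) had a counterpart, against 59.6% and 21.1% of all intervals of these lists.

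These shares depend on how densely the other list covers the stretch. Averaged over the whole stretch, members of the treated knockout covered 6.7% of its bases and those of untreated knockout 10.8%. For untreated wild type it was 17% and for treated wild type 0.196%. Behind the edge lay 512 of 516 treated knockout members, 530 of 536 in untreated knockout and 455 of 466 in untreated wild type. In these 3 lists the filled part was thus covered more densely than the averages say. Intervals also have a width, so an overlap of 1 bp is more likely than covered bases alone would give. The overlap that density alone would give was not computed. Counterparts in treated wild type were few. They were found for 3 of 516 treated knockout members, 0.581% (0.12 to 1.69) against 13.4% of all treated knockout intervals, and for 7 of 466 untreated wild-type members, 1.5% (0.606 to 3.07) against 14.8% of all. For untreated knockout members it was 6 of 536, 1.12% against 12% of all. Seen from treated wild type, 7 of 17 members had a counterpart in untreated wild type, 41.2% (18.4 to 67.1) against 28.7% of all, 6 of 17 in untreated knockout, 35.3% (14.2 to 61.7) against 16.6%, and 3 of 17 in the treated knockout, 17.6% (3.8 to 43.4) against 10.5% of all.

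**Figure D4:**
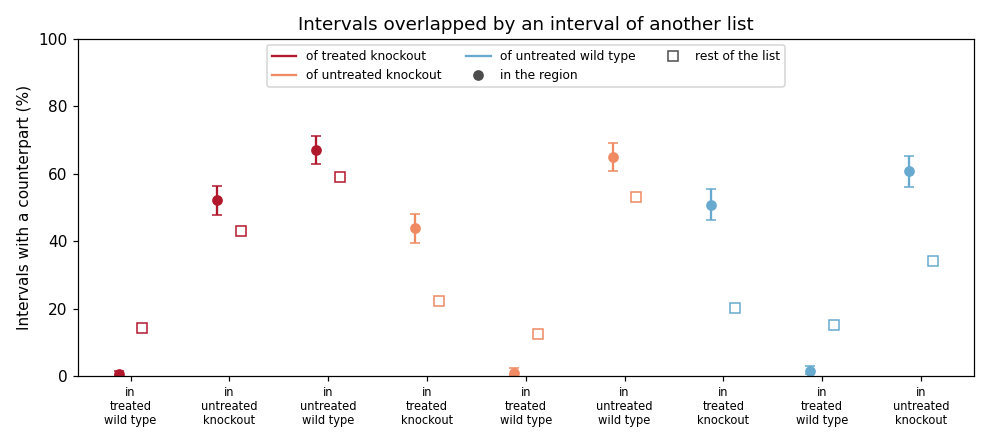
Share of intervals (%) of the treated knockout, untreated knockout and untreated wild-type lists that overlap an interval of the list named on the axis, in the stretch (filled circles, exact 95% intervals) and in the rest of the list (open squares, intervals smaller than the marker). Filled circles lie above the squares for every pair that leaves out treated wild type, and at 0.581 to 1.5% for the pairs that include it.

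The share with a counterpart was looked at by width in 4 pairs. Of the treated knockout members up to 1000 bp wide, 42.7% had a counterpart in untreated knockout, against 33.3% of the other intervals of that width. For 1000 to 2000 bp it was 53.5 against 43.6%, for 2000 to 3000 bp 71.7 against 71.1% and over 3000 bp, with 14 members, 85.7 against 91%. Here the members and the rest differed little above 2000 bp. Of the untreated knockout members, 18.8, 37.5, 58.3 and 67.5% had a counterpart in the treated knockout, from the narrowest class to the widest, against 8.54, 17.5, 28 and 59.2% of the rest. In untreated wild type 46.2, 59.4, 72.5 and 90% of untreated knockout members had one, against 36.1, 48.3, 62.1 and 87.3%. In these 3 pairs each wider class had the higher share, among members and among the rest. Of the untreated wild-type members, 34.8, 31.9, 49 and 80.9% had a counterpart in untreated knockout, against 10.7, 21.6, 27 and 53.5%. There the narrowest class of members, with 23 intervals, was above the next.

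Members without a counterpart lay a median of a few kb from the nearest interval of the other list. The lists themselves were closely spaced. The median gap between neighbouring members was 5.45 kb in the treated knockout and 4.6 kb in both untreated lists. Short distances therefore say little about shared positions. The 247 treated knockout members with none in untreated knockout had a median distance of 1.9 kb to the nearest, and 84 of them lay within 1000 bp. Of these 247, 137 or 55.5% had a counterpart in untreated wild type. It was 67.1% of all treated knockout members and 59.6% of all intervals of that list. The 301 untreated knockout members with none in the treated knockout had a median distance of 3.2 kb, and 63 were over 10 kb away. Untreated knockout members with none in untreated wild type numbered 188 with a median distance of 2.5 kb, and untreated wild-type members with none in untreated knockout 183 with 3.7 kb. Overlapping no interval of any other list were 110 members of the treated knockout, or 21.3% against 29.5% of all its intervals, and the 9 of treated wild type given above. In untreated knockout it was 134, or 25% against 39.3%, and in untreated wild type 127, or 27.3% against 51.8%.

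Positions held by the treated knockout and both untreated lists were spread over the filled part. A base common to all 3 lists was found in 199 treated knockout members (38.6%), 171 untreated knockout members (31.9%) and 148 untreated wild-type members (31.8%). Over all intervals of these lists the shares were 34.4, 18.2 and 11.9% in the same order. The common stretches numbered 207, with a median length of 950 bp and 195 kb in all, and treated wild type overlapped 3 of them. The 5 positions named below had the highest rank of the maximum in the list where that rank was lowest.

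The first of these positions ran from 116253001 to 116254200, with maxima of 2.12 times the list median in the treated knockout and 1.6 and 1.58 times in untreated knockout and untreated wild type. The second ran from 117752451 to 117754100, with 2, 1.6 and 1.58 times in the same order. At both, the called peaks had maxima in the highest 10% of each of the 3 lists. The region of a maximum need not lie at the shared bases. The third ran from 114648701 to 114649700, with 1.5, 1.6 and 1.58 times. At 119549901 to 119551250 the maxima were 1.5, 1.8 and 1.42 times, and at 118195551 to 118198150 they were 1.75, 2 and 1.33 times. Only the last of the 5 overlapped an interval of treated wild type, the one at 118197051 to 118197650.

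The 2 stretches of 10 Mb with a lower ratio in wild type were like it in part. From 60 to 70 Mb of chromosome X there were 308 intervals in the treated knockout, 0 in treated wild type, 332 in untreated knockout and 234 in untreated wild type. The share there in the knockout, treated over untreated, was 1.55 (1.32 to 1.81), close to the 1.61 of chromosome 1. From 60 to 70 Mb of chromosome 7 the counts were 131, 6, 236 and 223 in the same order, and the ratio in the knockout was 0.925 (0.742 to 1.15). These limits cover counting error only, and the ratios of the stretches were not tested against each other.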

How the data were processed

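TOP2B CUT&RUN was analysed in 8 of the 16 samples, 4 conditions with 2 replicates each. The 8 samples of the H2A antibody were not analysed here. The submitters' processing notes name SEACR, bedtools 2.30, deepTools 3.5.1, SAMtools 1.16, Bowtie2 2.4.2, Trimmomatic and FastQC, and the build GRCh37. Settings of SEACR, duplicate handling and scaling were not given in these sources. The authors deposited 1 list per condition, named as an intersection of peaks and without a header; columns were identified from their values. The deposited score is the area of a called peak and the deposited signal its maximum coverage. Both belong to the called peak, of which several intervals can be pieces. The depth of the libraries is unknown.

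Intervals were counted by midpoint with Python 3.11.15, pandas 2.3.3 and scipy 1.17.1. Shares have exact Clopper-Pearson 95% intervals and ratios exact conditional ones. Windows of 1 Mb with at least 20 intervals in either list were examined, with 0.5 added to each count, for a ratio of at least 2. Counting was tested on simulated data, where all planted overlaps were found. The stretch, lists and rules were chosen with earlier results of these data known. Named were all windows of 1 Mb, the 3 highest peaks per list, all treated wild-type members, the 5 highest positions of 3 lists, the longest gaps and the members at the bounds. Overlap with genes and sequences was not run, since no GRCh37 annotation or sequence was used. The targeted gene was not examined.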

Additional observations from a re-analysis of the deposited data

Results flagged for a closer look

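The share of the list at 110 to 120 Mb of chromosome 1 moved in opposite directions under osimertinib in the 2 genotypes. It was 1.61 times that of untreated cells in the knockout and 0.0577 times in wild type. The difference between the genotypes was not tested, since each condition has 1 list. By number of intervals the ratio was below 1 in both, at 0.963 in the knockout and 0.0365 in wild type.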

How the results depend on the processing

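No paired analysis was possible because each list is already an intersection of both replicates, and for the same reason no replicate could be left out. Of 114 alternative values for 25 results, 72 stayed within the 95% interval of the reported value or, for counts, within 1.5 times of it, 41 moved further and 1 reversed. The reversed value is the share in the knockout, treated over untreated, which was 0.963 by number of intervals. No other ratio of shares moved to the other side of 1. The cause of these changes was not tested.

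Counting only maxima of at least the list median gave ratios of shares of 2 for treated over untreated knockout, 1.06 for untreated knockout over wild type, 136 for treated knockout over wild type and 0.0156 for treated over untreated wild type. For treated over untreated knockout, lists of equal length gave 1.16, called peaks 1.37, chromosome 1 as denominator 1.29 and an area of at least 845 gave 2.94. For untreated knockout over wild type, the number of intervals gave 1.15 and that area 1.73. For treated knockout over wild type, called peaks gave 24.2, chromosome 1 as denominator 17.6, that area 96.2 and the filled part alone 94.2. For treated over untreated wild type, lists of equal length gave 0.0251, chromosome 1 as denominator 0.109 and the filled part alone 0.0243. The area and the filled part, from 113.5 Mb on, were chosen after seeing the data.

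For treated over untreated wild type, all 11 windows of 0.5 Mb examined were past 2-fold. For treated over untreated knockout it was 4 of 7 windows, against 0 reported, with maxima of at least the list median. For untreated knockout over wild type it was 1 of 7 by called peaks. The shares over the genome were not computed at these settings.

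With a reciprocal overlap of 50%, 15.1% of treated knockout members had a counterpart in untreated knockout and 14.6% the other way. It was 21.1% for untreated knockout in untreated wild type and 24.2% the other way, 5.88% for treated in untreated wild type and 0.215% the other way. Allowing a gap of 1000 bp gave 67.4, 56.3, 75.6 and 70.8% for the first 4 of these. With maxima of at least the list median, 60.3% of untreated knockout members had one in untreated wild type and 0.559% of untreated wild-type members one in treated wild type. By called peaks it was 65.6% for untreated wild type in untreated knockout. In the filled part, 85.7% of the 7 treated wild-type members had a counterpart in untreated wild type. The shares over all intervals were not computed at these settings, so none of these values is set against its list.

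Relative to chromosome 1 outside the stretch, the median maximum was 1.43 times in the treated knockout and 1.18 times in untreated wild type, which was also 1.18 by called peaks. Spans of called peaks had medians of 1350 bp in the treated knockout and 4150 bp in untreated wild type, and sole intervals 1125 bp in the treated knockout. With a gap of 1000 bp, 309 treated knockout members shared a position with both untreated lists. An empty window says only that no called peak passed into the list there, and the depth of the libraries is unknown.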
